A study of Rattus norvegicus with 56 samples.

Results

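Liver RNA taken at ZT16 was compared with liver RNA taken at ZT4 in male rats of the IUGR-RC group, with 4 libraries at each time, which are 8 of the 56 libraries of the study. ZT is zeitgeber time, counted in hours from lights on, so that under the 12 h light and 12 h dark cycle of the labels ZT4 lies in the light phase and ZT16 in the dark phase, when rats are active and feed. All 8 libraries share one history: Sprague-Dawley dams received 50% fewer calories from gestation day 10 up to delivery, the dams then had free access to regular chow (RC), and the livers of the male offspring were collected on day 180, at 6 months of age. IUGR stands for intrauterine growth restriction. The libraries were chosen by their labels for sex, group and time, not by any measured value. The same time difference was read, for comparison, in male CON rats (regular chow throughout, 3 libraries at each time), in female IUGR-RC rats (3 at ZT4 and 4 at ZT16) and in male IUGR-HFhf rats (the same restriction before birth, then the HFhf diet, which pairs Western-style food with water holding 25% fructose, 3 at ZT4 and 4 at ZT16). Male HFhf rats (no restriction before birth, dams on the HFhf diet from gestation day 11, 3 at ZT4 and 4 at ZT16) were used with male IUGR-HFhf rats to choose a set of genes that change with time. The labels name the library as the only unit and give no litter or dam, so the p-values measure the spread between these libraries, some of which may come from littermates. The source label reads mouse liver and the organism label reads rat.

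The circadian clock of the liver is a loop of transcription factors. ARNTL (also called BMAL1) pairs with CLOCK or NPAS2 and switches on the Per and Cry genes, whose proteins return to the nucleus and block that pair. The same pair drives Nr1d1, a repressor that competes with ROR activators for the Arntl promoter, and the activators Dbp and Tef, which bind D-box sites and carry the rhythm to liver enzymes. In a rodent liver, feeding and body temperature add their own daily rhythms to those of the clock, among them that of the heat shock genes, which code for protein chaperones.

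Promoter windows from 250 bases before to 50 bases after the gene start were taken from RefSeq on the GRCr8 build. Of the 15 clock genes tested, 14 had a window (all but Cry1), and 5 of these held one of 4 short motifs searched on both strands: the E-box CACGTG that the ARNTL pair binds, the D-box (TTATGTAA or TTACGTAA), the ROR element ANTAGGTCA and the cAMP element TGACGTCA, none of which contains another. The windows are shown because these motifs are the sites through which the loop is wired, and the capitals mark the match. The Arntl window, chr1:176766078-176766377 (+ strand), held a ROR element, the Per2 window, chr9:99496944-99497243 (- strand), a D-box, and the Tef window, chr7:115206577-115206876 (+ strand), an E-box.
Arntl: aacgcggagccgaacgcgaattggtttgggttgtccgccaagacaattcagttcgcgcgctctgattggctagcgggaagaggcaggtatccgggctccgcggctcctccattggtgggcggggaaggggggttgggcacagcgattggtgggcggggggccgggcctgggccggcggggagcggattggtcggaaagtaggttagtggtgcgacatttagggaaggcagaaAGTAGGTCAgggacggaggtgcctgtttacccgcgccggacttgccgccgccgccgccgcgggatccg
Per2: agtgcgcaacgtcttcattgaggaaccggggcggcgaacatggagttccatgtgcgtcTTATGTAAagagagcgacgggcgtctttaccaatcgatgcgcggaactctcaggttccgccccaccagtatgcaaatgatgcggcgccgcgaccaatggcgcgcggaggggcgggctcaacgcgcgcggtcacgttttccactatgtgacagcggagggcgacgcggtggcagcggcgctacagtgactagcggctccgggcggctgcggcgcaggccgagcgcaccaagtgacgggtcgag
Tef: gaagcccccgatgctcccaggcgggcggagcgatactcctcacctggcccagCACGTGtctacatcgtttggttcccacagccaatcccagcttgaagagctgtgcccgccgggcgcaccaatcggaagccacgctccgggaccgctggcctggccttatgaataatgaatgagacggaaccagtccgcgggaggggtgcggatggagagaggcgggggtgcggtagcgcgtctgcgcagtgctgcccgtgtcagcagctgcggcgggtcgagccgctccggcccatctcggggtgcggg

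E-boxes were also found in the windows of Bhlhe40, chr4:143174200-143174499 (+ strand), with 1 match, and of Ciart, chr2:186112197-186112496 (- strand), with 3 matches, both genes of repressors that act on E-boxes.
Bhlhe40: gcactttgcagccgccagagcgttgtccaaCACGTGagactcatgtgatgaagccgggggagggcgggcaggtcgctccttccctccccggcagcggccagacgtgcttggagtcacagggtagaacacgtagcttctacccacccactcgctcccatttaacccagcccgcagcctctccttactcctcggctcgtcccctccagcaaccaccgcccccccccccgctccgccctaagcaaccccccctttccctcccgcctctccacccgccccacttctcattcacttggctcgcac
Ciart: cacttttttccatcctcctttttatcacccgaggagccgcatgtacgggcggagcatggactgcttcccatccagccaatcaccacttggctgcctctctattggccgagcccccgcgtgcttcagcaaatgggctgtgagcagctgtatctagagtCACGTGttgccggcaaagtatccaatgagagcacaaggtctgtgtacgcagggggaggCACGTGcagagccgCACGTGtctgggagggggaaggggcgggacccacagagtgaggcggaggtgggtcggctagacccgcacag
For the heat shock genes the pair of inverted repeats GAANNTTC was searched, the core of the element that heat shock factor binds. It was found in 12 of the 21 windows of heat shock and cold-inducible genes (57.1%), against 5.81% of the 8951 windows of all tested genes. The window of Fkbp4, chr4:163397869-163398168 (- strand), is shown as the one that held it among the 3 members with the smallest p.
Fkbp4: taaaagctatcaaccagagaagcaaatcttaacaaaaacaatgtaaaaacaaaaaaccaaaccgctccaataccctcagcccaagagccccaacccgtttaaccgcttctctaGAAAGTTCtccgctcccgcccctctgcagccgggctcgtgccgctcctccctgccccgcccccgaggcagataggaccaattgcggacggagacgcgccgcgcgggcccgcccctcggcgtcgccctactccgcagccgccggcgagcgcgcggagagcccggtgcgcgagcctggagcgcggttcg
The ROR element was in 4 of 503 windows of genes lower at ZT16 (0.795%), in none of 476 of genes higher at ZT16, and in 0.369% of all. The E-box was in 11.1% of the higher, 12.9% of the lower and 9.28% of all, the D-box in 1.26%, 0.596% and 0.637%, and the cAMP element in 2.52%, 4.57% and 3.12%. A match describes letters in a window, not binding.

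The 8 libraries differed from one another within each time. Counted reads ranged from 5549530 to 19065339 per library. The TMM scaling factor, which adjusts a library for reads taken up by a few abundant transcripts, divided them into a low class (0.846, 0.90 and 0.818 in replicates 1, 3 and 4 at ZT4, and 0.844 in replicate 1 at ZT16) and a high class (1.02 in replicate 2 at ZT4, and 1.03, 0.957 and 0.971 in replicates 2, 3 and 4 at ZT16). Albumin transcripts (Alb) took 15.5% to 17.2% of the reads in the low class and 11.9% to 14.4% in the high class. The first principal component of the 8 libraries held 34.9% of the variance, and ZT16 replicate 1 lay at -12.7 on it, between ZT4 replicate 2 (-5.41) and the other ZT4 libraries (-20.9 to -25.4), while the other ZT16 libraries lay at 15.6 to 39.5. The labels name no batch that matches the classes. With 3 of 4 ZT4 libraries low and 3 of 4 ZT16 libraries high, class and time overlap in part, so the counts that lead each comparison are given from the fit of all 56 libraries, from a fit of the 8 libraries alone, and from a fit of the 8 with a term for the class.

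**Figure D1:**
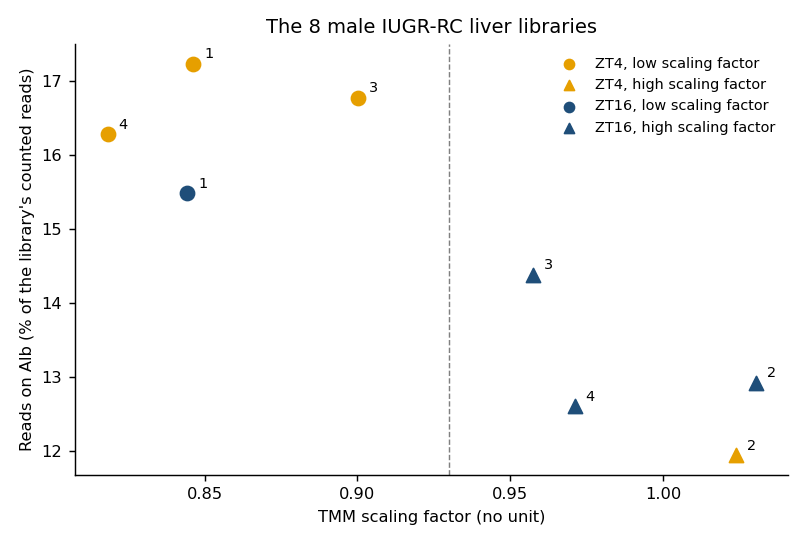
Each point is 1 of the 8 male IUGR-RC libraries, with its TMM scaling factor on the x axis, the share of its counted reads on Alb on the y axis, and its replicate number beside it. The dashed line at 0.93 divides the low class, which holds 3 ZT4 libraries and 1 ZT16 library, from the high class, which holds 1 and 3.

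Between ZT4 and ZT16, transcripts changed in both directions in equal number. Of 11047 genes tested with edgeR's quasi-likelihood test, 585 were higher at ZT16 (5.3%) and 585 lower (5.3%) at an adjusted p below 0.05, and 105 of the higher and 78 of the lower differed at least 2-fold. With the 8 libraries alone, which leaves 6 residual degrees of freedom in place of 40, the counts were 144 higher (1.41%) and 102 lower (0.997%) of 10230. With the class term they were 104 (1.02%) and 95 (0.929%). All 241 genes called both with 56 and with 8 libraries had the same direction, and 142 genes were called in all 3 fits, 76 of them higher and 66 lower at ZT16. In 522 genes every ZT16 library lay above every ZT4 library (4.73%), and in 529 every one lay below (4.79%). These calls rest on a spread estimated over all groups of the study, and the count moved with single libraries: without ZT16 replicate 1 it was 1045 higher and 1255 lower, without ZT4 replicate 1 376 and 369, without ZT16 replicate 2 380 and 359, and without ZT16 replicate 4 376 and 333. The lower count alone moved past 1.5 times without ZT4 replicate 4 (333) and without ZT16 replicate 3 (361).

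The core clock changed in both directions. Of 15 tested members 6 were higher at ZT16 (Per1, Per2, Per3, Cry1, Cry2 and Tef) and 4 were lower (Npas2, Arntl, Clock and Nr1d1). The members' median log2 fold change was 0.61, beside -0.01 for all genes tested, of which 5.3% were called in each direction. With the 8 libraries alone 5 were higher and 3 lower, and with the class term 4 and 4. Levels below are in CPM, the reads of a gene scaled to a common library size with the TMM factor, and stand in the order of replicates 1 to 4.

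The activators of the loop were higher at ZT4 than at ZT16. Npas2, the partner of ARNTL that can stand in for CLOCK, was at 17.9, 21.9, 13.4 and 14.5 CPM at ZT4 and at 0.144, 0, 0.419 and 0.742 CPM at ZT16. The log2 fold change was -5.76 ± 0.88 (SE, 4 against 4) with an adjusted p of 1.42e-05, and the call stood in the 8 libraries alone (adjusted p = 0.000143) and with the class term (adjusted p = 0.000123). Arntl, the central activator, was at 51.2, 39.6, 25.9 and 22.6 CPM at ZT4 and at 3.17, 6.41, 11.0 and 12.4 CPM at ZT16. The 2 groups did not overlap, and replicates 3 and 4 at ZT4 were the lower of their group. Its log2 fold change was -2.12 ± 0.53 (adjusted p = 0.00690, and 0.0308 and 0.0475 in the other fits). Clock itself lay at 88.3 to 103 CPM at ZT4 and 52.5 to 75.5 CPM at ZT16, with a log2 fold change of -0.49 ± 0.13 and an adjusted p of 0.0107, which was 0.120 in the 8 libraries alone.

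The Per and Cry genes, whose proteins repress the ARNTL pair, were higher at ZT16 than at ZT4. Per2 was at 4.90, 6.18, 14.5 and 14.3 CPM at ZT4 and at 59.5, 108, 93.5 and 84.4 CPM at ZT16, and its log2 fold change was 3.11 ± 0.39 (adjusted p = 4.48e-07). The lowest ZT16 library lay far above the highest ZT4 library. Cry1 was at 6.14, 7.99, 8.27 and 6.01 CPM at ZT4 and 17.4, 23.3, 22.1 and 26.9 CPM at ZT16 (1.66 ± 0.25, adjusted p = 8.82e-06). Cry2 was at 12.3 to 20.4 CPM at ZT4 and 34.2 to 47.8 CPM at ZT16 (1.40 ± 0.18, adjusted p = 2.48e-07). Both Cry genes passed in all 3 fits, as did Per2. Per3 rose from 1.98, 2.98, 6.54 and 8.32 CPM to 23.0, 38.9, 28.8 and 20.8 CPM (2.48 ± 0.58, adjusted p = 0.00384), with an adjusted p of 0.0839 once the class term was in. Per1 passed with 56 libraries, but its ZT4 levels of 2.98 to 12.7 CPM overlapped the 11.8 to 36.3 CPM at ZT16, its adjusted p was 0.0475, and it did not pass in the 8 libraries alone (adjusted p = 0.129). It stayed called in 2 of the 8 fits that leave out 1 library, those without ZT4 replicate 4 or ZT16 replicate 1.

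Among the genes that connect the loop to its targets, Nr1d1 and Tef changed in opposite directions. Nr1d1, the repressor of Arntl, was at 39.6, 42.4, 59 and 70.2 CPM at ZT4 and at 14.9, 15.9, 6.29 and 5.01 CPM at ZT16 (-2.31 ± 0.50, adjusted p = 0.00141). Tef was at 21.2, 29.1, 39.8 and 40.8 CPM at ZT4 and at 87.7, 102, 90.6 and 92.4 CPM at ZT16 (1.51 ± 0.31, adjusted p = 0.00100). Both passed in all 3 fits. Dbp, which is related to Tef, did not pass. Its ZT4 libraries were at 7.13, 5.65, 32 and 46.8 CPM and its ZT16 libraries at 106, 70.6, 48.2 and 32.7 CPM, a log2 fold change of 1.49 ± 0.74 with an adjusted p of 0.210. Replicates 3 and 4 at ZT4 also held the higher Per2, Per3 and Tef and the lower Arntl of that group, and replicates 3 and 4 at ZT16 the lower Dbp and Nr1d1 and the higher Arntl of theirs. Nr1d2 (0.01 ± 0.30), Bhlhe40 (0.16 ± 0.28), Nfil3 (0.51 ± 0.20) and Ciart (0.61 ± 0.83) did not pass, and Ciart was at 1.25 CPM or less in every library.

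**Figure D2:**
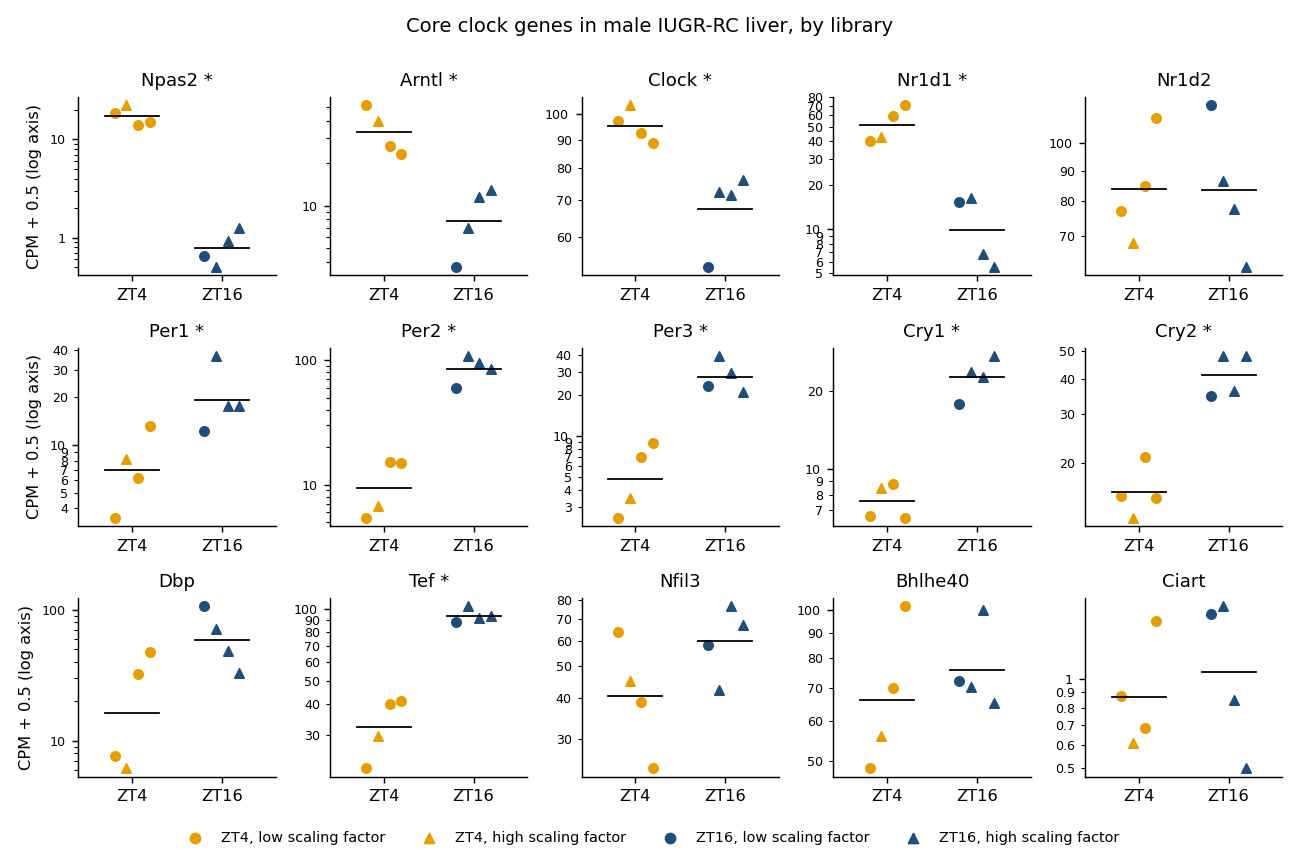
The level of 15 core clock genes in each library, as CPM plus 0.5 on a log axis that differs by panel, with ZT4 in orange and ZT16 in blue, circles for libraries of the low scaling class and triangles for the high class, and a line at the mean of the log values (n = 4 for each time). An asterisk marks an adjusted p below 0.05 in the fit of 56 libraries; Npas2 and Per2 show the widest gaps, and the Dbp and Nr1d2 groups overlap.

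Among 22 tested genes that modify the clock or are its known outputs, 10 were higher and 1 lower at ZT16 (4 and 0 with the 8 libraries alone, and 4 and 0 with the class term), with a median log2 fold change of 0.46. Over all genes tested 5.3% were called in each direction. Wee1, the kinase that holds cells before mitosis and a textbook clock target, was at 1.74, 2.56, 2.82 and 3.90 CPM at ZT4 and at 20.3, 19.8, 13.1 and 16.3 CPM at ZT16 (2.65 ± 0.33, adjusted p = 1.93e-07). Timeless, a replication fork gene linked to the clock, was at 4.45 to 6.21 CPM at ZT4 and at 15.8 to 22.6 CPM at ZT16 (1.82 ± 0.25, adjusted p = 1.54e-06). Wee1 and Timeless passed in all 3 fits. Por, which passes electrons to every microsomal cytochrome P450, was at 80.8, 149, 68.6 and 128 CPM at ZT4 and 267, 795, 414 and 353 CPM at ZT16 (2.10 ± 0.36, adjusted p = 9.60e-05, and 0.0580 with the class term).

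Usp2, a deubiquitinase that acts on clock proteins, was at 1.74, 3.09, 2.63 and 10.0 CPM at ZT4 and 22.9, 41.9, 27.5 and 23.6 CPM at ZT16 (2.68 ± 0.49, adjusted p = 0.000231, and 0.134 with the class term). Alas1, the first enzyme of heme synthesis, rose by 1.48 ± 0.28 (adjusted p = 0.000317, and 0.0545 in the 8 libraries alone). ZT16 replicate 2 stood highest of its group in Por, Usp2 and Alas1. Noct, a clock output that removes phosphate from NADP, was at 3.96, 37.4, 5.31 and 0.742 CPM at ZT16, with replicate 2 far above the others. Its adjusted p was 0.0358 (2.08 ± 0.66) with 56 libraries and 0.307 in the 8 libraries alone.

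Each library was placed between the male CON means at ZT4 and ZT16, over genes that change with time in other male rats. With ZT4 and ZT16 alone, this placement gives no phase within the daily cycle. From the mean time difference of male HFhf and male IUGR-HFhf rats, 149 genes outside the core clock list were taken that passed the test with a log2 size of at least 1, 91 of them higher and 58 lower at ZT16. These libraries are neither CON nor IUGR-RC. Male ZT16 HFhf replicate 3, which the fit without the 4 doubted libraries leaves out, was among them, and the choice of genes was not repeated without it. In male IUGR-RC 117 of the 149 had the same sign (78.5%) and the median difference, counted positive in the direction of the other males, was 0.61 on the log2(CPM + 0.5) scale. In male CON 128 had the same sign (85.9%) and the median was 0.72. Each library was then projected on the line from the CON mean at ZT4, set to 0, to the CON mean at ZT16, set to 1. ZT4 replicates 1 to 4 stood at -0.0173, 0.0588, 0.104 and 0.229 and ZT16 replicates 1 to 4 at 0.750, 1.05, 0.861 and 0.814. Against means that leave out the library itself, the CON libraries stood at -0.101 to 0.135 at ZT4 and 0.837 to 1.02 at ZT16. Of the 8, ZT4 replicate 4 and ZT16 replicate 1 lay nearest to the other time.

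**Figure D3:**
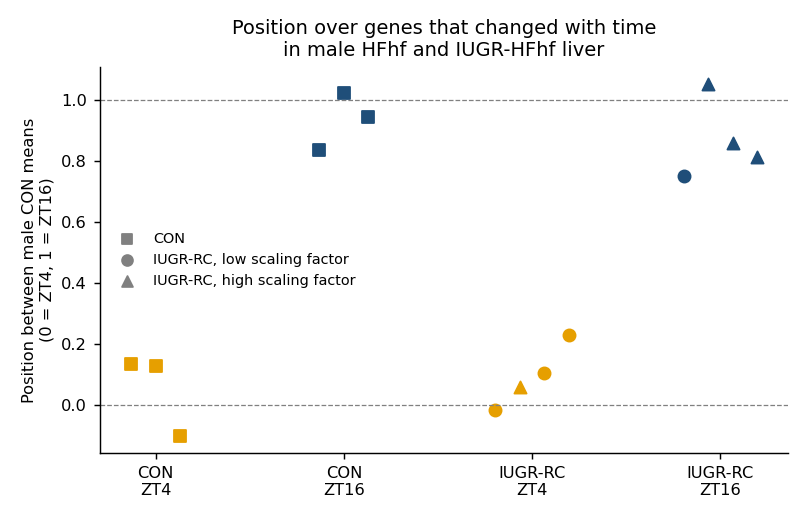
The y axis gives the position of each male library between the CON means at ZT4 (0) and at ZT16 (1) over 149 genes that changed with time in male HFhf and IUGR-HFhf liver, with ZT4 in orange and ZT16 in blue. The 4 IUGR-RC libraries at ZT4 lie at 0.229 or below and the 4 at ZT16 at 0.750 or above, beside the CON libraries (squares).

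The calls of male IUGR-RC were set beside those of the other groups, which share no libraries with it. In male CON 591 genes passed, and 278 of the genes called in male IUGR-RC were among them, all in the same direction, which is 23.8% of the IUGR-RC calls and 47% of the CON calls. Of the IUGR-RC calls, 1009 had the same sign in CON (86.2%), against 62.3% of all genes tested. In male IUGR-HFhf 1194 genes passed, 204 of which were also called in IUGR-RC, 180 in the same direction (15.4% and 15.1% of each list) and the others in the opposite direction, and 61.6% of the IUGR-RC calls had the same sign, against 49.8% of all genes. In female IUGR-RC 771 genes passed, 284 of them in common and in the same direction (24.3% and 36.8% of each list), and 89.4% of the IUGR-RC calls had the same sign, against 67.1% of all genes. Of the 142 genes called in all 3 fits, 138 had the same sign in CON, 134 in female IUGR-RC and 131 in IUGR-HFhf.

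Outside the clock, the largest rises were taken from genes that passed, averaged 1 CPM or more over the 8 libraries and had separate groups. Fras1, an extracellular matrix protein, was at 0.310, 0.639, 1.45 and 2.51 CPM at ZT4 and at 20.7, 89.1, 66.5 and 56.6 CPM at ZT16 (5.52 ± 0.57, adjusted p = 6.45e-09). Nrg4, a secreted ligand of ErbB receptors, was at 0.434, 0.426, 0.636 and 2.71 CPM at ZT4 and at 17.8, 29.9, 15 and 16.7 CPM at ZT16 (4.14 ± 0.61, adjusted p = 6.07e-06). In both genes the groups lay far apart, and ZT4 replicate 4 was the highest of its group.

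Pdxp, a phosphatase of vitamin B6, rose from 0.533 to 1.12 CPM at ZT4 to 3.67 to 8.52 CPM at ZT16 (2.90 ± 0.38, adjusted p = 6.27e-07). Cyp1a1, the inducible P450 that oxidises aromatic compounds, lay at 1.17 to 1.59 CPM at ZT4 and at 16.5, 4.38, 12.5 and 4.83 CPM at ZT16 (2.87 ± 0.61, adjusted p = 0.00123). Nat8, an acetyltransferase of the endoplasmic reticulum, was at 2.66 to 8.13 CPM and 22.5 to 42.4 CPM (2.60 ± 0.42, adjusted p = 3.79e-05). These 5 genes passed in all 3 fits, as did Hspa1a, described with the heat shock genes. Per2, Per3, Usp2 and Wee1 complete the 10 largest rises.

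After Npas2, the largest fall by the same rule was that of Ptk6, an intracellular tyrosine kinase, at 10.7, 4.15, 7.90 and 11.0 CPM at ZT4 and 0.0719, 0.625, 0.629 and 0.742 CPM at ZT16 (-4.17 ± 0.57, adjusted p = 1.23e-06). Srms, a related kinase, lay at 1.12 to 2.82 CPM at ZT4 and at 0 to 0.938 CPM at ZT16 (-2.32 ± 0.67, adjusted p = 0.0173, and 0.0744 in the 8 libraries alone). Acpp, a phosphatase, was at 8.63 to 10.3 CPM at ZT4 and at 0.489 to 1.3 CPM at ZT16 (-3.39 ± 0.42, adjusted p = 2.01e-07). Levels of the sialyltransferase gene St8sia1 fell by 3.31 on the log2 scale, of the cell cycle gene Rprm by 3.09 and of the calcium pump gene Atp2b2 by 3.0. Acpp, St8sia1, Rprm, Atp2b2 and Ptk6 passed in all 3 fits. Slc34a2, a phosphate transporter, was at 154, 90.2, 76.8 and 28.1 CPM at ZT4 and 12.2, 9.06, 13.2 and 21.9 CPM at ZT16 (-2.65 ± 0.57, adjusted p = 0.00148, and 0.120 with the class term). The beta-tubulin gene Tubb2a fell by 2.31 (adjusted p = 0.000236, and 0.0545 with the class term), and Nr1d1 completes the 10.

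Many heat shock genes rose at ZT16, and most of these calls stood in the stricter fits. Of 24 tested heat shock and cold-inducible genes 11 were higher and 1 lower, with a median of 0.48, beside 5.3% of all genes tested in each direction. The same 11 were higher with the 8 libraries alone, 9 of them also with the class term. In all 11 every ZT16 library lay above every ZT4 library, which held for 4.73% of all genes tested. The 11 were picked as called higher, which favours such separation. Hsp90ab1, the constitutive cytosolic HSP90, was at 310, 402, 359 and 381 CPM at ZT4 and at 671, 632, 724 and 721 CPM at ZT16 (0.92 ± 0.13, adjusted p = 3.87e-06). Its rise was 0.94 within the low class of libraries and 0.78 within the high class. These values rest on ZT16 replicate 1 alone in the low class and ZT4 replicate 2 alone in the high class. The genes of HSP90 partners rose with it: Fkbp4 from 166, 195, 190 and 171 CPM to 268, 277, 346 and 360 CPM (0.79 ± 0.13, adjusted p = 5.31e-05), Stip1 by 0.82 ± 0.19 (adjusted p = 0.00237) and Ahsa1 by 0.71 ± 0.15 (adjusted p = 0.000914).

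Among the HSP70 family and its helpers, Hsph1, an exchange factor, was at 84.6, 120, 106 and 114 CPM at ZT4 and at 235, 197, 231 and 210 CPM at ZT16 (1.04 ± 0.21, adjusted p = 0.000691). Hspa4l, of the same class, rose by 1.20 ± 0.30 (adjusted p = 0.00666). Hspa1a was at 0.496, 1.17, 0.818 and 0.462 CPM at ZT4 and 2.23, 3.59, 6.57 and 3.71 CPM at ZT16 (2.51 ± 0.47, adjusted p = 0.000258), and Hspa1b rose by 1.66 ± 0.33. Hspa1a and Hspa1b are nearly identical in sequence, so reads may be divided between them in an uncertain way. Mitochondrial Hspd1 was at 97.0 to 117 CPM at ZT4 and 149 to 170 CPM at ZT16 (0.61 ± 0.12, adjusted p = 0.000351). The small chaperone genes Hspb1 (1.41 ± 0.35) and Hspb8 (0.55 ± 0.14) rose too, and Hspb1 and Hspa1b were the members that did not pass with the class term (adjusted p = 0.0515 and 0.0735).

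The lower member was Cirbp, an RNA-binding protein induced by cooling (-0.66 ± 0.19, adjusted p = 0.0203, and 0.0723 in the 8 libraries alone). Rbm3, the other cold-inducible member, did not pass (-0.45, adjusted p = 0.159), nor did Hsf1, the gene of the heat shock factor itself (0.03, adjusted p = 0.943), Dnajb1 (0.26, adjusted p = 0.339) or Hspa8 (-0.41, adjusted p = 0.628). In male CON 3 members of the list passed (Hsph1, Dnajb1 and Cirbp) and 20 of 24 had the same sign as in male IUGR-RC. Hsp90ab1 differed between the times by 0.32 in CON and Fkbp4 by 0.17, and no member's time difference passed the test against CON. Body temperature and food intake are not in the labels, and their part in these changes was not tested.

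**Figure D4:**
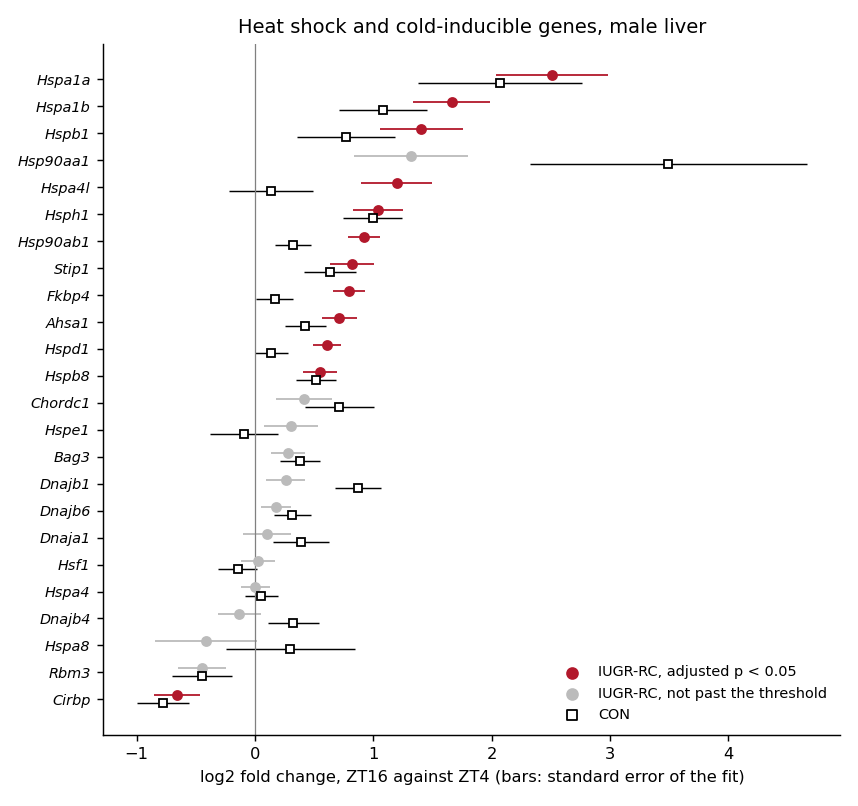
The log2 fold change of ZT16 against ZT4 for each of 24 heat shock and cold-inducible genes in male IUGR-RC (filled, red where the adjusted p is below 0.05) and in male CON (open squares), with bars for the standard error of the fit. The 11 genes that rose in IUGR-RC lie between 0.55 and 2.51, and Cirbp at the bottom lies at -0.66.

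Some of the genes of bile transporters fell at ZT16. Of 25 tested genes of bile acid synthesis and transport 6 were lower and 1 higher, with a median of -0.32 (4 lower and 0 higher in both of the other fits), and the 4 were transporters. The shares called were 24% and 4%, beside 5.3% of all genes tested in each direction. Abcb11, the pump that exports bile acids into bile, was at 1298, 1002, 1210 and 1575 CPM at ZT4 and at 692, 661, 676 and 624 CPM at ZT16 (-0.94 ± 0.12, adjusted p = 4.34e-07). Abcb4, which moves phosphatidylcholine into bile, was at 116, 106, 82.9 and 83.8 CPM at ZT4 and 36.8, 56.3, 38.2 and 54 CPM at ZT16 (-1.08 ± 0.18, adjusted p = 5.95e-05). The groups did not overlap in either gene. Abcc2, the exporter of conjugates, was at 750 to 906 CPM at ZT4 and 411 to 559 CPM at ZT16 (-0.81 ± 0.19, adjusted p = 0.00406). Slco1b2, an uptake transporter of the blood side, was at 1550, 876, 1563 and 1821 CPM at ZT4 and at 967, 560, 507 and 528 CPM at ZT16 (-1.18 ± 0.22, adjusted p = 0.000236). Its groups overlapped, and the difference was -0.76 within the low class and -0.72 within the high class. Only ZT16 replicate 1 stood for its time in the low class, and only ZT4 replicate 2 in the high class.

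The transporter genes Slco1a1 (-0.32, adjusted p = 0.236), Abcc3 (-0.10, adjusted p = 0.920), Abcg8 (-0.69, adjusted p = 0.637) and Abcg5 (0.91, adjusted p = 0.381) did not pass.

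Among the bile acid synthesis enzymes, Cyp7a1, the rate-limiting enzyme, was at 89.9, 50.0, 57.2 and 179 CPM at ZT4 and at 420, 307, 107 and 134 CPM at ZT16, and its groups overlapped (1.36 ± 0.56, adjusted p = 0.115). Cyp8b1 was just short of the threshold (-0.94, adjusted p = 0.0541). Nr0b2, a repressor of Cyp7a1, was the higher member, with 1 library far above the rest: ZT16 replicate 2 was at 54.9 CPM, the other 3 at 3.45 to 6.87 CPM, and its adjusted p was 0.0142 with 56 libraries and 0.253 with 8. The remaining lower members, Slc10a1 (-0.57) and Acox2 (-0.53), did not pass in the 8 libraries alone (adjusted p = 0.172 and 0.197).

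In carbohydrate metabolism 4 of 25 tested genes were higher and 2 lower, with a median of 0.18 (1 and 1 with the 8 libraries alone, 2 and 1 with the class term). The shares called were 16% and 8%, beside 5.3% of all genes tested in each direction. Gckr, a regulatory protein of liver glucose metabolism, was at 331, 365, 342 and 316 CPM at ZT4 and 65.2, 55.6, 103 and 107 CPM at ZT16 (-2.03 ± 0.25, adjusted p = 1.66e-07). The groups lay far apart, and the call stood in all 3 fits. Gpi, an enzyme of glycolysis, rose by 0.79 ± 0.24 (adjusted p = 0.0224) and passed in all 3 fits. Gys2, which makes glycogen, was higher (0.84 ± 0.20, adjusted p = 0.00409) with overlapping groups. Pygl, which breaks glycogen down, was lower (-0.65 ± 0.13, adjusted p = 0.000376). Neither passed in the 8 libraries alone (adjusted p = 0.0709 and 0.0640), and Gys2 passed with the class term (adjusted p = 0.0110).

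Of 30 genes that serve gluconeogenesis or break down amino acids, 2 were higher and 2 lower (0 and 1 in both other fits). Each share was 6.67%, near the 5.3% of all genes tested. Cth, which makes cysteine from cystathionine, was at 1045, 903, 1095 and 1031 CPM at ZT4 and at 309, 379, 353 and 628 CPM at ZT16 (-1.29 ± 0.31, adjusted p = 0.00436), and its groups did not overlap. Hgd, of tyrosine breakdown, fell by 0.64 ± 0.14 (adjusted p = 0.00203, and 0.0661 in the 8 libraries alone), and Gpt2 rose by 0.52 (adjusted p = 0.0438, and 0.131).

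Lipid genes changed one by one rather than as lists. Of 25 genes of fatty acid and triglyceride synthesis 2 were higher and 2 lower (1 and 2 with the 8 libraries alone, 2 and 1 with the class term). Each share was 8%, beside 5.3% of all genes tested in each direction. Lpin2, a phosphatidate phosphatase, was at 37.6, 33.7, 42.3 and 48.7 CPM at ZT4 and at 113, 183, 187 and 180 CPM at ZT16 (2.03 ± 0.29, adjusted p = 3.83e-06), and passed in all 3 fits with Acsl3, an acyl-CoA synthetase (-0.73 ± 0.20, adjusted p = 0.0116). Elovl5 fell by 0.77 (adjusted p = 0.0103, and 0.0604 with the class term). Of 41 genes of fatty acid oxidation and PPAR alpha targets 2 were higher and 1 lower (4.88% and 2.44%), and 0 passed with the class term. Ppara was at 17.9 to 26.5 CPM at ZT4 and at 24.2, 52.8, 41.4 and 65.5 CPM at ZT16, overlapping through ZT16 replicate 1 (1.13 ± 0.24, adjusted p = 0.000936, and 0.137 with the class term). The lipid droplet gene Plin2 was at 654, 396, 392 and 331 CPM at ZT4 and 247, 104, 181 and 160 CPM at ZT16 (-1.35 ± 0.26, adjusted p = 0.000337, and 0.0877 with the class term). Acaa1a rose by 0.45 (adjusted p = 0.00975, and 0.142 in the 8 libraries alone).

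In the cholesterol list 2 of 27 were higher and 1 lower, and none passed in either of the other fits. The shares called were 7.41% and 3.7%, beside 5.3% of all genes tested in each direction. The lower member, Insig2, which holds back the processing of the sterol regulators, was at 138 to 255 CPM at ZT4 and at 43.2, 46.6, 79.2 and 128 CPM at ZT16 (-1.43 ± 0.27, adjusted p = 0.000274, and 0.0579 in the 8 libraries alone).

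The calls among genes of ribosome production depended on the fit. Of 25 tested members 11 were lower and 1 higher at ZT16 with 56 libraries, with a median of -0.46, but 1 lower with the 8 libraries alone and 0 with the class term. With 56 libraries 5.3% of all genes tested were called in each direction. Nop58, a core protein of small nucleolar ribonucleoproteins, was at 42.1, 43.4, 37.3 and 51.1 CPM at ZT4 and 33.5, 21.4, 16.1 and 15.6 CPM at ZT16 (-0.99 ± 0.19, adjusted p = 0.000354, and 0.0824 with the class term). Its difference was -0.36 within the low class, where ZT16 replicate 1 alone stood for its time. Within the high class, where ZT4 replicate 2 alone stood for its time, it was -1.28. Gnl3, a nucleolar GTPase, was at 79.4 to 111 CPM at ZT4 and 73.5, 48.9, 43.6 and 29.5 CPM at ZT16 (-0.90 ± 0.19, adjusted p = 0.00123, and 0.0700 in the 8 libraries alone), and Nop56 gave -0.81 (adjusted p = 0.00101, and 0.0587). The higher member was Myc, which drives ribosome production: ZT16 replicate 4 was at 69.4 CPM and the other 3 at 18.1 to 19.4 CPM, beside 4.16 to 18.3 CPM at ZT4 (adjusted p = 0.0352, and 0.252 in the 8 libraries alone). Of 50 tested ribosomal protein genes 0 passed edgeR's test in each of the 3 fits, with 20 positive and 30 negative values and a median of -0.09.

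The other lists held few calls, to be read beside the 5.3% of all genes tested that were called in each direction. Drug metabolism had 5 higher of 42, among them Por and Nr1i2, the xenobiotic receptor PXR (0.65 ± 0.17, adjusted p = 0.00863, and 0.0598 with the class term), and Ugt2b17, which was at 1.88 CPM or less in every library. In the insulin and growth factor list 1 of 24 was higher and 2 lower. Trib3, an inhibitor of AKT, was at 3.91 to 5.28 CPM at ZT4 and 0.742 to 2.34 CPM at ZT16 and passed in all 3 fits (-1.52 ± 0.50, adjusted p = 0.0397), but it stayed called in 2 of the 8 fits that leave out 1 library, those without ZT4 replicate 2 or ZT16 replicate 2 (adjusted p up to 0.129). Socs2, a brake on growth hormone signalling, fell by 1.47 (adjusted p = 0.0482, and 0.0905 with the class term), and Igfbp4 rose by 0.58 (adjusted p = 0.000728, and 0.0636 in the 8 libraries alone).

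Of 16 glucocorticoid genes 2 were higher and 1 lower, and none passed in the other fits: Tsc22d3, a target of the receptor, was at 62.1, 158, 64.2 and 69 CPM at ZT16 beside 22.8 to 41.6 CPM at ZT4 (adjusted p = 0.0508 in the 8 libraries alone), and the receptor gene Nr3c1 was at 308 to 499 CPM at ZT4 and 236 to 290 CPM at ZT16 (adjusted p = 0.0765). Among 29 genes of the endoplasmic reticulum 2 were higher and 2 lower, and Dnajb9, a cochaperone, passed in all 3 fits (-0.70 ± 0.20, adjusted p = 0.0169), but not without ZT4 replicate 3 or ZT16 replicate 3 (adjusted p up to 0.0664). Atf4 fell by 0.65 (adjusted p = 0.000636, and 0.0509 in the 8 libraries alone) and Herpud1 rose by 0.64 (adjusted p = 0.00862, and 0.107). Autophagy and lysosome genes had 3 higher and 2 lower of 25, oxidative phosphorylation 1 higher of 39 (Atp5d, 0.36), heme, iron and NAD genes 2 higher of 21 (Alas1 and Tfrc), plasma proteins 1 lower of 22 (Apob, -0.39) and cell division 2 higher of 29 (Wee1 and Mcm6). Tfeb (0.68), Atp6v0d1 (0.52) and Ctsl (-0.51) were the lysosomal genes with the smallest p. None of the called genes of the lysosome, oxidative phosphorylation, heme and plasma protein lists passed with the 8 libraries alone or with the class term. Mcm6, a replication helicase, lay at 1.55 to 2.31 CPM at ZT4 and at 3.60 to 8.54 CPM at ZT16 (adjusted p = 0.00409, and 0.0629 with the class term).

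**Figure D5:**
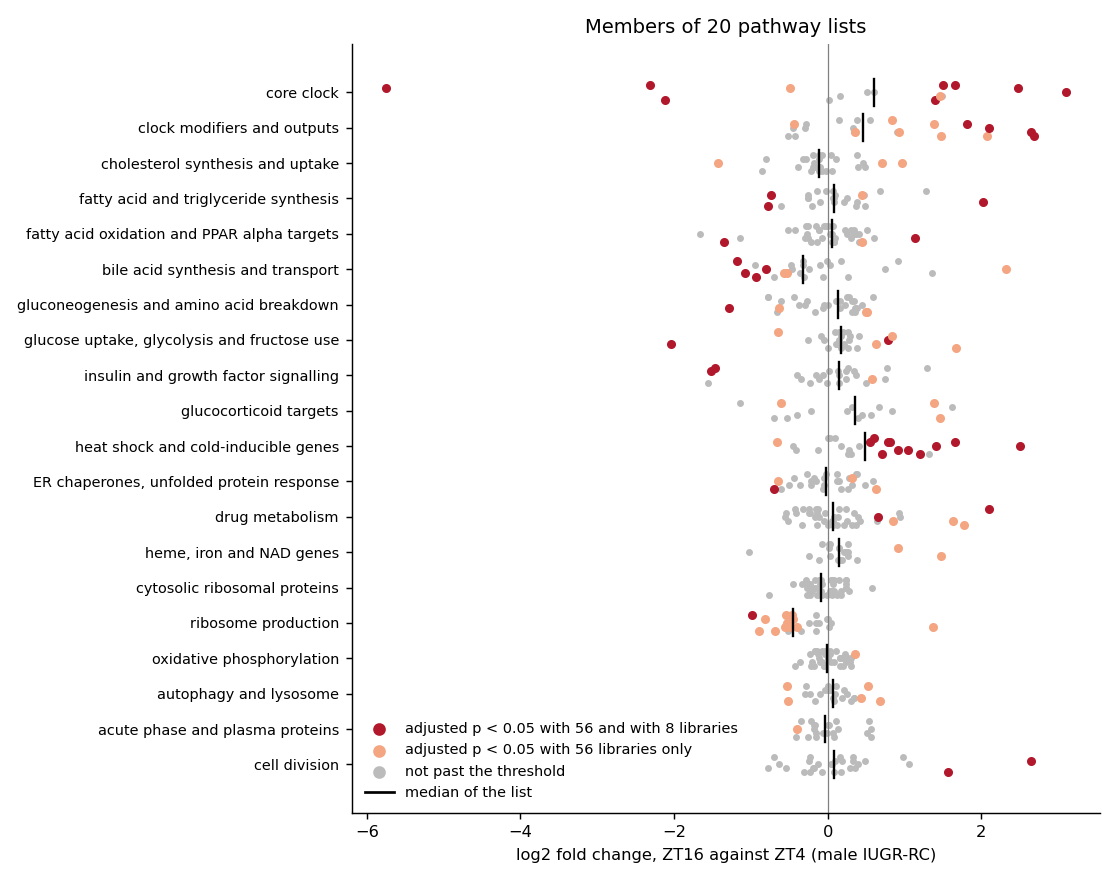
Each point is a tested member of 1 of 20 pathway lists, placed by its log2 fold change of ZT16 against ZT4 in male IUGR-RC, dark red where it passed with 56 and with 8 libraries, light red where it passed with 56 only, and grey otherwise, with a black bar at the list's median. The core clock spans -5.76 to 3.11, the heat shock list has 11 dark red points on the right, and the ribosome production list has 11 called points on the left, 1 of them dark red.

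Hepatocyte markers summed to 184523 to 276202 CPM over 8 genes at ZT4 and to 197305 to 250262 CPM at ZT16. The summed levels of the 12 marker lists overlapped between the times. The 8 skeletal muscle markers summed to at most 1.6 CPM, with Myh4 at 0 in all 8 libraries, and the 10 macrophage markers to 620 to 1224 CPM at ZT4 and 728 to 1210 CPM at ZT16. Neutrophil markers summed to 19.5 CPM in ZT16 replicate 1 and to 1.82 to 5.22 CPM in the other 7, and red cell markers to 275 to 501 CPM at ZT4 and 141 to 415 CPM at ZT16. In bulk tissue, fewer cells of a type and less RNA per cell cannot be told apart.

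Whether the time difference of male IUGR-RC departed from that of male CON was tested directly, gene by gene. The difference between the 2 time differences passed for 4 of 11047 genes (0.0362%), and for 0 when the 4 groups were fitted alone, where the smallest adjusted p of the 4 was 0.362. Nfil3, a repressor that competes with DBP and TEF for D-box sites, was the member of the clock list among them. It lay at 63.4, 44.6, 38.4 and 23.8 CPM at ZT4 and 57.6, 41.9, 75.9 and 66.6 CPM at ZT16 in IUGR-RC, and at 52.6 to 80.9 CPM and 26.9 to 35.3 CPM in CON. The time difference was thus 0.51 in IUGR-RC and -1.09 in CON (difference 1.6 ± 0.32, adjusted p = 0.0269). Sdr42e1, a dehydrogenase-like gene, was at 90.4, 68.5, 100.4 and 117 CPM at ZT4 and 44, 53.3, 47.5 and 39.2 CPM at ZT16, and at 40.7 to 46.9 CPM and 40.4 to 62.7 CPM in CON (difference -1.28 ± 0.24, adjusted p = 0.0269).

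Tcf7l1, a repressor of Wnt target genes, gave 0.73 in IUGR-RC (adjusted p = 0.000414, and 0.107 in the 8 libraries alone) and -0.35 in CON (adjusted p of the difference 0.0269). Each of the 4 calls was lost on leaving out any of 9 or more of the 14 libraries in turn. No other clock gene passed: Dbp gave 1.49 in IUGR-RC and 4.12 in CON (adjusted p of the difference 0.470), Nr1d1 -2.31 and -0.40 (0.352), and Per2 3.11 and 2.80 (0.906). The sample titles begin with M in male IUGR-RC, with F in female IUGR-RC and with T in CON and the other groups, and the labels do not say what the letters mean. If they mark preparation, it cannot be told apart from diet history or, against females, from sex.

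Against female IUGR-RC, 16 of 11047 genes passed (0.145%), 12 with a more positive and 4 with a more negative time difference in males, and 0 when the 4 groups were fitted alone. The female ZT4 libraries were uneven: Arntl ran from 2.22 to 60.5 CPM and Npas2 from 0.532 to 33.5 CPM among 3 libraries labelled ZT4, and the muscle gene Tpm2 from 3.04 to 253 CPM. Without 4 doubted libraries, 2 of them female ZT4 IUGR-RC, 6 and 1 genes passed, with the lone ZT4 female assumed to vary like the other groups. The muscle genes Tpm2, Fhl1 and Eno3 were among the largest differences (5.09, 5.08 and 4.90) and lay at 1.65 to 5.25 CPM in all 8 male libraries. Without female ZT4 replicate 2 these differences were 0.82, 1.04 and 0.25 (adjusted p = 0.787, 0.586 and 0.961). Fras1 differed most (7.86): it was at 0.0886 to 2.60 CPM in females at ZT4 and 0.126 to 0.236 CPM at ZT16. That call did not stand without the doubted libraries (6.39, adjusted p = 0.730) or without female ZT4 replicate 2 alone (5.86, adjusted p = 0.434). Egf, the epidermal growth factor, was at 4.09, 4.15, 5.72 and 6.34 CPM at ZT4 and 2.01, 1.72, 2.03 and 2.41 CPM at ZT16 in males, and gave 0.54 in females (difference -1.86 ± 0.31, adjusted p = 0.00205). Slc35g1 (-1.81), Sdr42e1 (-1.06) and Mob1b (-0.74) were the remaining negative differences. None of them passed without female ZT4 replicate 2 (-1.53, -0.99 and -0.65, adjusted p of the difference 0.108, 0.0777 and 0.108).

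Against male IUGR-HFhf, which had the same restriction before birth and the other diet after it, 924 of 11047 genes passed (8.36%), 433 more positive and 491 more negative in IUGR-RC, and 80 and 93 when the 4 groups were fitted alone. In the clock, Cry2 rose by 1.40 in IUGR-RC and gave 0.47 in IUGR-HFhf (adjusted p of the difference 0.0202), and Nfil3 gave 0.51 and -0.46 (0.0380). Timeless gave 1.82 and 0.42 (0.0172). Arntl gave -2.12 and -0.47, which did not pass (0.164), nor did Per3 (2.48 and 0.56, adjusted p of the difference 0.131) or Nr1d1 (-2.31 and -4.04, 0.122). Some other called genes of IUGR-RC also passed the test of the difference. Plin2 gave -1.35 and -0.03 (0.0252), Ppara 1.13 and -0.14 (0.0175), Lpin2 2.03 and 0.55 (0.0230) and Tubb2a -2.31 and 0.07 (0.0152). Choosing genes as called in IUGR-RC favours smaller values in the other group. Plin2, Ppara and Tubb2a were not called in IUGR-RC once the class term was in.

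Some ribosome production genes differed too, as Nop58 gave -0.99 and 0.16 (adjusted p of the difference 0.0143), Nop56 -0.81 and 0.15 (0.0212) and Gnl3 -0.90 and 0.23 (0.0152). With the class term the time difference in IUGR-RC did not pass for these genes (adjusted p = 0.0824, 0.127 and 0.146). The test of the difference was not run with that term. In that list 8 of 25 members passed the test of the difference, against 8.36% of all genes tested. So did 9 of 50 ribosomal protein genes and 9 of 39 genes of oxidative phosphorylation. Of the largest differences, Myc (3.06) and Irs2 (2.99), an insulin receptor substrate, had ZT16 replicate 4 far above the others, with 62.7 CPM of Irs2 beside 17.2 to 20.01 CPM in the other 3. Cxcl1 (4.32), a chemokine gene, was at 23.7 CPM in ZT16 replicate 1, the library with the higher neutrophil sum, and at 1.88 to 5.80 CPM in the other 3, and the part of those cells was not tested. Cpne4 (4.13) was at 3.21 CPM or less in every IUGR-RC library. On the negative side stood A1bg (-5.87), Ptgis (-3.39), LOC100361444 (-2.67) and Abcg2 (-2.65), an efflux transporter that was at 1.56 to 17.6 CPM at ZT16 in IUGR-RC and gave 2.25 in IUGR-HFhf. With the 4 groups fitted alone, A1bg, Abcg2, Cxcl1 and Myc did not pass (adjusted p of the difference 0.0895, 0.0857, 0.114 and 0.0624). Without male ZT4 IUGR-HFhf replicate 3, A1bg, Ptgis, LOC100361444, Abcg2 and Cxcl1 did not pass (0.0644, 0.0716, 0.0670, 0.117 and 0.109). No heat shock gene passed the test of the difference in the fit of 56 libraries, and in IUGR-HFhf 12 of the 24 passed the test of time itself.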

How the data were processed

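The authors deposited one table of read counts per gene, whole numbers not normalized, for 56 libraries in 16 groups. Per the submitters' processing notes, FastQC, STAR, Subread featureCounts, DESeq2 and the rn6 build were used, with versions not given. Per the labels' protocols, ribosomal RNA was removed and libraries were stranded, while the molecule label reads polyA RNA. From the deposited counts, genes were filtered by expression in any group (11047 of 17337 kept) and fitted with edgeR 4.0.16 (R 4.3.3, TMM scaling, quasi-likelihood test, Benjamini-Hochberg adjustment over all genes, threshold 0.05). The spread was estimated over all 56 libraries. Alternatives used DESeq2 1.42.0, other scaling or filters, the 8 libraries alone, and a term for the scaling class, whose boundary of 0.93 was chosen after the values were seen. The fit was tested on simulated data. Of the table's symbols, 26 had been turned into dates. Replicates of one time differed by 14.7 to 97.5 times counting noise (chi-square per degree of freedom), so each library counts as 1 replicate.

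The members and the gene lists were chosen with earlier results of these data known. Named genes were all core clock genes, the 10 largest rises and falls (called, mean of at least 1 CPM, no overlap), the 3 called members with the smallest p in each list, and the 4 largest differences in each direction. Other list members were named after their values were seen. The results of a few single genes are not reported here, though the counts include them. Log values used a pseudocount of 0.5 CPM.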

Additional observations from a re-analysis of the deposited data

Results flagged for a closer look

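Of 182 groups of 4 libraries tested over 91 named genes, 11 held a library far from the others, and chance flags about 1 in 20 groups. At ZT4, replicate 4 stood apart in Nrg4 (2.71 CPM), Usp2 (10.0 CPM) and Atp5d (69.2 CPM), and replicate 2 in St8sia1 (5.01 CPM). At ZT16, replicate 1 stood apart in Lpin2 (113 CPM), Slco1b2 (967 CPM) and Tpm2 (4.82 CPM). ZT16 replicate 2 stood apart in Tsc22d3 (158 CPM) and Herpud1 (329 CPM), and replicate 4 in Myc (69.4 CPM) and Irs2 (62.7 CPM).

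The time difference of male IUGR-RC differed from that of another group, by the test of the difference itself in edgeR, for named genes that include those below, in log2 units. For each other group, up to 4 genes in each direction were named because they passed this test, so their passing was fixed in advance. Against male CON these were Nfil3 (1.6), Tcf7l1 (1.09) and Sdr42e1 (-1.28). Against female IUGR-RC they were Fras1 (7.86), Tpm2 (5.09), Fhl1 (5.08), Eno3 (4.90), Egf (-1.86), Slc35g1 (-1.81), Sdr42e1 (-1.06) and Mob1b (-0.74). Without female ZT4 replicate 2, Fras1, Tpm2, Fhl1 and Eno3 gave 5.86, 0.82, 1.04 and 0.25, and none of these 4 passed. Slc35g1, Sdr42e1 and Mob1b did not pass there either (adjusted p of the difference 0.108, 0.0777 and 0.108).

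Against male IUGR-HFhf, 27 of the 91 named genes differed, beside 924 of all 11047 genes tested (8.36%). Many other named genes were chosen as called in the IUGR-RC time test, which enters this difference. The share among named genes is therefore raised by the choice and cannot be set against 8.36%. The positive differences were those of Cxcl1 (4.32), Cpne4 (4.13), Myc (3.06), Irs2 (2.99), Lpin2 (1.48), Timeless (1.40), Ppara (1.27), Tcf7l1 (1.03), Nfil3 (0.97), Cry2 (0.94), Herpud1 (0.92), Tfeb (0.78) and Igfbp4 (0.59). The negative differences included A1bg (-5.87), Ptgis (-3.39), LOC100361444 (-2.67), Abcg2 (-2.65), Tubb2a (-2.38), Slc35g1 (-1.36), Plin2 (-1.33), Gckr (-1.23), Nop58 (-1.15), Gnl3 (-1.13), Mob1b (-1.09), Nop56 (-0.96) and Nr3c1 (-0.57). Without male ZT4 IUGR-HFhf replicate 3, Cxcl1, A1bg, Ptgis, LOC100361444 and Abcg2 did not pass.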

How the results depend on the processing

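Of 585 genes higher and 585 lower at ZT16, DESeq2 called 669 and 573, relative log expression scaling 629 and 545, no filter on low counts 510 and 486, and the fit without 4 doubted libraries of other groups 634 and 660. The counts were 144 and 102 with the 8 libraries alone, 214 and 161 with the 15 IUGR-RC libraries, and, in alternatives chosen after seeing the data, 104 and 95 with a term for the scaling class and 151 and 132 with the scaling factor as a covariate. Leaving out one library gave 376 to 1045 higher and 333 to 1255 lower, with the largest counts without ZT16 replicate 1. The time difference against male CON was more positive for 2 genes and more negative for 2. DESeq2 gave 13 and 8, the 4 groups alone 0 and 0, relative log expression scaling 4 and 2, no filter 2 and 1, the fit without the doubted libraries 9 and 9, and leaving out one library 0 to 94 and 0 to 125, the largest without ZT16 IUGR-RC replicate 1. Against female IUGR-RC the counts of 12 and 4 became 64 and 18 with DESeq2, 0 and 0 with the 4 groups alone, 6 and 1 without the doubted libraries, and 4 to 123 and 1 to 24 on leaving out one, the largest without female ZT4 replicate 1. Against male IUGR-HFhf, 433 and 491 became 80 and 93 with the 4 groups alone, and 181 to 928 and 163 to 1243 on leaving out one, the largest without ZT16 IUGR-RC replicate 1. The median over the time genes of other males, 0.61, was 0.17 with a size of at least 0.5 and 0.78 with at least 1.5, and 0.56 to 0.61 on leaving out one library. In male CON the median was 0.72, and 0.37 and 0.89 with those 2 sizes. With a size of at least 0.5, 528 of 762 genes had the same sign in male IUGR-RC and 651 in male CON. The causes of these changes were not tested, beyond the fewer libraries fitted. Of 69 named genes called, 68 remained with DESeq2, 43 of 68 with the 8 libraries alone, 32 of 68 with the class term and 58 to 67 on leaving out one library, and none of them changed sign. Nr1d2, which was not called, changed sign without ZT4 replicate 1 (-0.03), ZT4 replicate 2 (-0.08) or ZT16 replicate 1 (-0.17). No paired analysis was possible because the replicate numbers follow the order of deposit and the labels name no shared litter or day. Depth of 5549530 to 19065339 counted reads limits the precision of genes near 1 CPM.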

Other observations

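Genes outside the lists that passed in all 3 fits were named here after their values were seen. Kynu, kynureninase of tryptophan breakdown, was at 404, 277, 399 and 459 CPM at ZT4 and at 58.5, 82.4, 88.1 and 85.6 CPM at ZT16 (-2.29 ± 0.20, adjusted p = 1.23e-11 in edgeR). Gk, the glycerol kinase gene, was at 743 to 1001 CPM at ZT4 and at 193 to 316 CPM at ZT16 (-1.98 ± 0.20). The groups of both genes lay far apart, and the same genes gave -1.86 and -1.65 in male CON. Tymp, thymidine phosphorylase, fell by 2.21 on the log2 scale, Chka, choline kinase, by 2.05 and Crot, which moves acyl groups out of peroxisomes, by 1.71. The tight junction genes Cldn2 and Cldn1 gave -1.45 and -1.10, and Slc16a1, a lactate and ketone transporter, -1.03.

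Among the rises, Adh1, an alcohol dehydrogenase, gave 1.52 ± 0.25 (adjusted p = 4.21e-05 in edgeR) and Adh4, of the same family, 1.29 ± 0.30. Nmrk1, which makes NAD from nicotinamide riboside, rose from 3.22, 3.62, 5.91 and 6.94 CPM to 18.4, 13.4, 21.5 and 16.3 CPM (1.83 ± 0.28) and gave 1.92 in male CON. Scnn1a, a subunit of the epithelial sodium channel, lay at 1.82 to 2.44 CPM at ZT4 and at 7.97 to 9.64 CPM at ZT16 (2.06 ± 0.34). Il1rn, the interleukin 1 receptor antagonist, gave 1.06 in male IUGR-RC and -0.11 in male CON, a difference that did not pass the test.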
